A study of Mus musculus with 24 samples.

Results

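The comparison is between the nucleus accumbens of nerve-injured mice given a viral vector for Mef2c and that of nerve-injured mice given the same vector without Mef2c. It takes 12 of the 24 RNA-seq libraries of the study, chosen by their labels: 6 labelled SNI Mef2c and 6 labelled SNI Gfp. SNI Mef2c mice had undergone tibial SNI (spared nerve injury, used to model long-term neuropathic pain) on the left sciatic nerve and received AAV8-hSyn-Mef2c-Egfp in the accumbens of both sides. SNI Gfp mice had the same injury and received AAV8-hSyn-Egfp, so both groups carried an Egfp vector whose hSyn promoter is active in neurons. The other 12 libraries came from sham-operated mice, 6 with each vector. The mice were C57BL/6J or DBA/2J and 8 to 9 weeks old, and which library came from which strain is unknown here. The accumbens was punched from coronal slices, and both sides went into 1 sample.

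MEF2C is a DNA-binding transcription factor of the MADS-box family. In neurons, calcium entry and the phosphatase calcineurin switch MEF2 proteins between repression, with class IIa histone deacetylases bound, and activation, and their known targets include regulators of excitatory synapses. The accumbens is a ventral part of the striatum built mainly of GABAergic medium spiny neurons, and it takes part in reward, motivation and the affective side of pain.

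Library totals were 25477019 to 35601890 counts in SNI Mef2c and 28101826 to 36570108 counts in SNI Gfp. Levels below are CPM, counts scaled to library size with TMM factors, differences are log2 fold changes of SNI Mef2c over SNI Gfp with their standard error (SE), and a gene passed at an adjusted p under 0.05 in edgeR's quasi-likelihood test over 23738 genes. Markers of medium spiny neurons were abundant in all 12 libraries, with a mean over 20 genes of 7.48 to 8.72 log2 CPM in SNI Mef2c and 7.62 to 8.64 log2 CPM in SNI Gfp. Some libraries stood apart. Immune genes were high in SNI Gfp libraries 4 and 6 and in all 6 Sham Gfp libraries, and low in the other 4 SNI Gfp libraries, with library 3 above the rest of these. Cortical neuron markers were high in SNI Mef2c library 1 and SNI Gfp library 4, smooth muscle and fibroblast markers in SNI Gfp library 3, and choroid plexus genes in SNI Gfp library 6. Over the 500 most variable genes, immunoglobulin and class II genes led the first principal component (61.5% of the variance), and the second (18.9%) was led by the cortical genes Slc17a7, Neurod2 and Neurod6. The labels do not tie libraries to mice, so the p-values rest on the spread among libraries. In the labels the sequencing index follows the groups, so a preparation order along that index cannot be told apart from the groups.

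Mef2c, the gene the vector carries, was raised in every SNI Mef2c library and was the single gene that passed. It lies on chromosome 13 from 83504034 to 83667080 on the plus strand (mm10), and 0 other annotated genes overlap it. The 6 SNI Mef2c libraries had 748, 474, 511, 518, 583 and 832 CPM, against 133, 221, 152, 213, 135 and 153 CPM in the 6 SNI Gfp libraries. The groups did not overlap: every SNI Mef2c library stood above all SNI Gfp ones, with replicates 6 and 1 of SNI Mef2c the highest. The means were 611 ± 146 CPM in SNI Mef2c and 168 ± 39.2 CPM in SNI Gfp (SD, n = 6 each). The log2 fold change was 1.86 (SE 0.26, edgeR adjusted p = 0.00627). An exact two-sided permutation test over 924 assignments gave a 3.64-fold difference and p = 0.00217, the smallest it can give. The counts do not separate transcripts of the vector from those of the endogenous gene.

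Markers of cortical neurons, which express Mef2c strongly, differed between these libraries. The mean of 18 cortical markers without Mef2c was 5.79, 2.55, 2.25, 4.32, 4.22 and 3.87 log2 CPM in SNI Mef2c libraries 1 to 6, against 2.43, 3.46, 2.43, 5.14, 2.35 and 2.31 log2 CPM in SNI Gfp libraries 1 to 6. Within SNI Mef2c the cortical mean was highest in library 1, at 748 CPM of Mef2c, and lowest in libraries 3 and 2, at 511 and 474 CPM of Mef2c. Library 6 had the most Mef2c, 832 CPM, at a lower cortical mean than libraries 4 and 5, which had 518 and 583 CPM of Mef2c. Within SNI Gfp, whose vector lacks Mef2c, this gene was highest in library 2 (221 CPM) and library 4 (213 CPM). Cortical markers were also most abundant in these libraries, at 3.46 and 5.14 log2 CPM. The remaining SNI Gfp libraries had 133 to 153 CPM of Mef2c, at 2.31 to 2.43 log2 CPM of cortical markers. With the cortical mean as a covariate the log2 fold change of Mef2c was 1.72 (edgeR adjusted p = 0.0141). Without SNI Gfp libraries 4 and 6 it was 1.92 and missed the threshold (edgeR adjusted p = 0.0763).

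**Figure D1:**
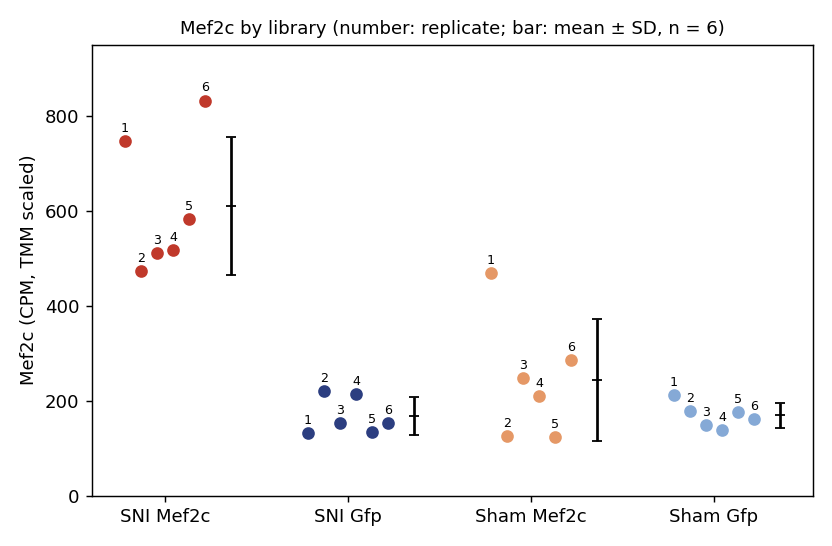
Mef2c level (CPM) in each library of the 4 groups, with the replicate number at each point and the mean ± SD (n = 6) beside it. The 6 SNI Mef2c libraries lie between 474 and 832 CPM, above all 6 SNI Gfp libraries at 133 to 221 CPM, while the Sham Mef2c libraries lie between 123 and 469 CPM.

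The vector's effect on Mef2c was also set against that in sham-operated mice. Mef2c had a lowest, median and highest level of 123, 229 and 469 CPM in Sham Mef2c, against 139, 168 and 212 CPM in Sham Gfp. The groups overlapped. The log2 difference between the vector effect after SNI and that after sham was 1.34 for Mef2c (SE 0.35, unadjusted p = 0.000984, edgeR adjusted p = 0.313), which did not pass. Over all genes this difference passed for 0 genes (0%) in edgeR, with 3529 genes (14.9%) at an unadjusted p under 0.05, and for 1 gene in DESeq2. Without SNI Gfp libraries 4 and 6 it passed for 1494 of 24121 genes, 1207 with a higher log2 fold change (Mef2c over Gfp) after SNI than after sham and 287 with a lower one. That fit leaves out the SNI Gfp libraries highest in immune genes and keeps the Sham Gfp libraries, all 6 of which were high in immune genes.

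The other MEF2 family members did not pass. Over all 23738 genes, 1 passed as higher (0.00421%) and 0 as lower (0%) in edgeR, with 1379 higher (5.81%) and 2004 lower (8.44%) at an unadjusted p under 0.05. Mef2d, a close relative abundant in adult brain, had a lowest, median and highest level of 319, 330 and 335 CPM in SNI Mef2c, against 259, 284 and 325 CPM in SNI Gfp (log2 fold change 0.18, SE 0.08, adjusted p = 0.348). The whole SNI Gfp range lay below 5 of the 6 SNI Mef2c libraries, and the sixth lay within it. Mef2a had 128, 137 and 140 CPM in SNI Mef2c, against 106, 125 and 147 CPM in SNI Gfp, and its reads are uncertain because its span overlaps the more abundant Lysmd4. Mef2b had 11.3, 14.0 and 16.03 CPM in SNI Mef2c, against 13.9, 15.3 and 15.9 CPM in SNI Gfp.

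Among genes of the proteins that act with MEF2, 0 of 26 corepressors and coactivators passed, with 3 higher and 0 lower at an unadjusted p under 0.05 and a median log2 fold change of 0.03, against -0.00044 over all genes. Those 3 were Ppp3cb and Ppp3r1, the genes of a catalytic and the regulatory subunit of calcineurin, and Ncor1, a nuclear corepressor. Ppp3cb had a lowest, median and highest level of 274, 290 and 317 CPM in SNI Mef2c, against 230, 252 and 282 CPM in SNI Gfp (log2 fold change 0.19, SE 0.06, adjusted p = 0.160). Ppp3r1 had 298, 316 and 351 CPM in SNI Mef2c, against 237, 254 and 312 CPM in SNI Gfp (log2 fold change 0.24, SE 0.09, adjusted p = 0.237). In both genes the groups overlapped, with SNI Gfp library 4 near the SNI Mef2c levels.

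Of 29 measured genes reported elsewhere as neuronal MEF2 targets, 0 passed, 24 had a positive and 5 a negative log2 fold change, and 2 were higher at an unadjusted p under 0.05. Over all genes, 11825 log2 fold changes were positive and 11913 negative, and 5.81% of genes were higher at that p. The median log2 fold change of the target list was 0.10. It was 0.03 with the cortical mean as a covariate and 0.18 without SNI Gfp libraries 4 and 6, and it lay between 0.06 (without SNI Gfp library 1) and 0.18 (without SNI Gfp library 4) when 1 library was left out. Lgi1, a secreted synaptic protein, had a lowest, median and highest level of 84.2, 91.3 and 98.0 CPM in SNI Mef2c, against 71.5, 77.4 and 92.9 CPM in SNI Gfp (log2 fold change 0.19, SE 0.07, adjusted p = 0.199). The whole SNI Gfp range lay below 2 of the 6 SNI Mef2c libraries, and the other 4 lay within it. The log2 fold change was 0.31 for Homer1, a postsynaptic scaffold (SE 0.20), and 0.29 for Kcna1, a potassium channel subunit (SE 0.14). Bdnf, a neurotrophin, had a lowest, median and highest level of 1.15, 2.68 and 20.01 CPM in SNI Mef2c, against 1.24, 1.54 and 7.21 CPM in SNI Gfp (log2 fold change 0.97, SE 0.62, adjusted p = 0.478), with overlapping groups. Arc, an activity-regulated gene of the synapse, had 28.4, 38.9 and 71.7 CPM in SNI Mef2c, against 13.7, 37.1 and 89.4 CPM in SNI Gfp, and its SNI Mef2c range lay inside the SNI Gfp range.

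The MEF2 site CTANNNNTAG, with A or T at each N, reads as the same kind of site on both strands. It stood in the 250 bases before the start of 0.508% of 32851 RefSeq promoters (GRCm38.p6). Of the target list 20 of 29 genes matched, with 36 promoters, of which 1 held the site (2.78%), that of Jun. Of the corepressor list 19 of 26 genes matched, with 31 promoters, of which 1 held it (3.23%), that of Hdac5, a class IIa histone deacetylase that binds MEF2. Both are shown because they are the promoters of these lists with the site, which is in capitals, read 5′ to 3′ on the gene's strand. They lie at chr4:95052223-95052472 (Jun, minus strand) and chr11:102230173-102230422 (Hdac5, minus strand).
Jun: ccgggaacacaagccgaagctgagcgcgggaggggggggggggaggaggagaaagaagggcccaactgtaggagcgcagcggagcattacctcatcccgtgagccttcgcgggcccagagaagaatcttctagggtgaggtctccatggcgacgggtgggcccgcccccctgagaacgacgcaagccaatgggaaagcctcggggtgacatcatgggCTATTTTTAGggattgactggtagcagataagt
Hdac5: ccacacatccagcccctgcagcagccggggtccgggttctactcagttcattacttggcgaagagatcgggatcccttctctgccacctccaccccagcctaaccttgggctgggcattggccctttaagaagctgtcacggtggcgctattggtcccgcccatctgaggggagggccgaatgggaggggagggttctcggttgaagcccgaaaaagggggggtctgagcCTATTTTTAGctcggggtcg
The site began 33 bases before the start in Jun and 20 bases before it in Hdac5. Jun, a subunit of the AP-1 transcription factor, had a lowest, median and highest level of 22.1, 27.1 and 40.0 CPM in SNI Mef2c, against 20.3, 23.9 and 42.4 CPM in SNI Gfp (log2 fold change 0.09, SE 0.16, adjusted p = 0.822). Hdac5 had 163, 167 and 218 CPM in SNI Mef2c, against 163, 183 and 215 CPM in SNI Gfp (log2 fold change -0.07, SE 0.08, adjusted p = 0.704). The groups overlapped over nearly their whole ranges in both genes.

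Most lists of neuronal receptor, channel and synapse genes had small positive medians, and 0 of their members passed. Of 42 glutamate receptor and scaffold genes, 33 had a positive log2 fold change and 14 were higher and 1 lower at an unadjusted p under 0.05, with a median of 0.16. Of all genes, 5.81% were higher and 8.44% lower at that p. Gria2, the AMPA receptor subunit that limits calcium entry, had a lowest, median and highest level of 845, 889 and 973 CPM in SNI Mef2c, against 720, 781 and 838 CPM in SNI Gfp (log2 fold change 0.19, SE 0.07, adjusted p = 0.211). Its groups did not overlap, which held for 78 genes higher in SNI Mef2c (0.329%) and 54 genes lower (0.227%) of all tested. Nlgn3, a postsynaptic adhesion molecule, had 97.5, 99.9 and 108 CPM in SNI Mef2c, against 88.7, 92.9 and 96.5 CPM in SNI Gfp (log2 fold change 0.13, SE 0.04, adjusted p = 0.147). Its groups did not overlap either.

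Among channels, 5 of 27 sodium, calcium and HCN channel genes and 7 of 43 potassium channel genes were higher at an unadjusted p under 0.05. Of all genes, 5.81% were higher at that p. The medians of these lists were 0.16 and 0.17, and 0.08 and 0.09 with the cortical mean as a covariate. Scn2a, a sodium channel of axons and dendrites, had a lowest, median and highest level of 371, 399 and 458 CPM in SNI Mef2c, against 328, 348 and 383 CPM in SNI Gfp (log2 fold change 0.21, SE 0.06, adjusted p = 0.124). The 2 groups overlapped at their edges. Kcnj10, an inward rectifier of astrocytes and oligodendrocytes, ran the other way with 293, 304 and 316 CPM in SNI Mef2c, against 322, 365 and 474 CPM in SNI Gfp (log2 fold change -0.31, SE 0.11, adjusted p = 0.230). Its groups did not overlap, which in that direction held for 1 of the 43 potassium channel genes and 0.227% of all genes.

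Medium spiny neuron genes had a positive log2 fold change in 20 of 20 genes, with a median of 0.29, and 0 at an unadjusted p under 0.05. Adora2a, the adenosine receptor of indirect pathway neurons, had a lowest, median and highest level of 72.7, 241 and 283 CPM in SNI Mef2c, against 129, 173 and 270 CPM in SNI Gfp. SNI Mef2c library 1 was the low one in this gene and had the lowest mean of the list, 7.48 log2 CPM. Cortical markers had a median log2 fold change of 0.58 over 19 genes, here with Mef2c itself among them. This median was between -0.10 and 1.94 when 1 library was left out. Whether tissue content took part in the differences of neuronal genes was not tested gene by gene; with the cortical covariate the median of the glutamate receptor list was 0.11 and that of the medium spiny neuron list 0.24, and without SNI Mef2c library 1 and SNI Gfp library 4 they were 0.20 and 0.45.

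**Figure D2:**
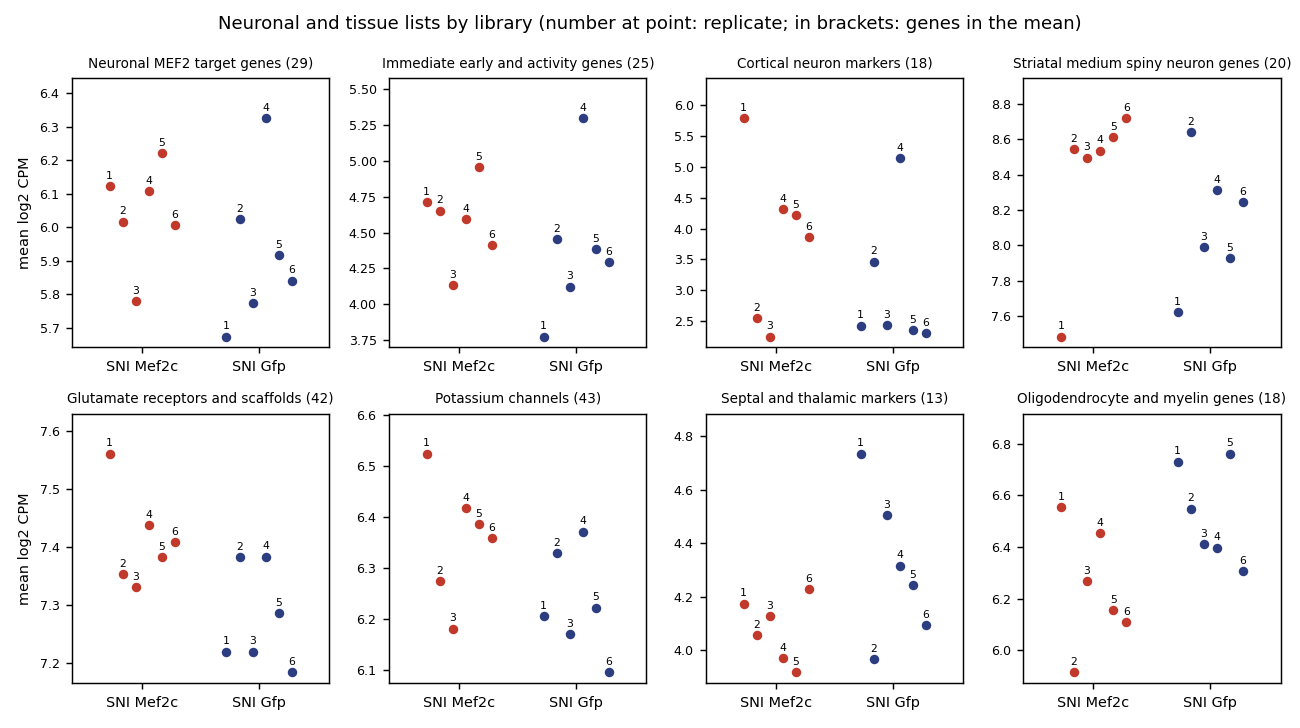
Mean log2 CPM of 8 neuronal and tissue lists in each SNI Mef2c and SNI Gfp library, with the replicate number at each point and the number of genes in brackets. SNI Mef2c library 1 (5.79) and SNI Gfp library 4 (5.14) are highest in cortical markers, and SNI Mef2c library 1 (7.48) and SNI Gfp library 1 (7.62) are lowest in medium spiny neuron genes.

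The largest list medians were those of immune lists. Within the SNI Gfp group the high levels were those of libraries 4 and 6, and all 6 Sham Gfp libraries were high as well. Interferons bind cell surface receptors, and the genes they switch on encode antiviral proteins and the class I and class II molecules that present antigen to T cells. All 6 SNI Mef2c libraries were low in these genes, SNI Gfp libraries 1, 2 and 5 were near them, library 3 was between, and libraries 4 and 6 were far above. The interferon effector mean of libraries 4 and 6, at 3.97 and 4.71 log2 CPM, lay within the range of the 6 Sham Gfp libraries, 3.55 to 5.44 log2 CPM, while the 6 Sham Mef2c libraries had 1.04 to 1.40 log2 CPM. SNI Gfp libraries 1, 2, 3 and 5 lay below all 6 Sham Gfp libraries. None of the immune genes passed: after Mef2c, the genes of known symbol with the smallest p had an edgeR adjusted p of 0.0891. In all genes tested, 2182 (9.19%) had both libraries 4 and 6 above every SNI Mef2c library.

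**Figure D3:**
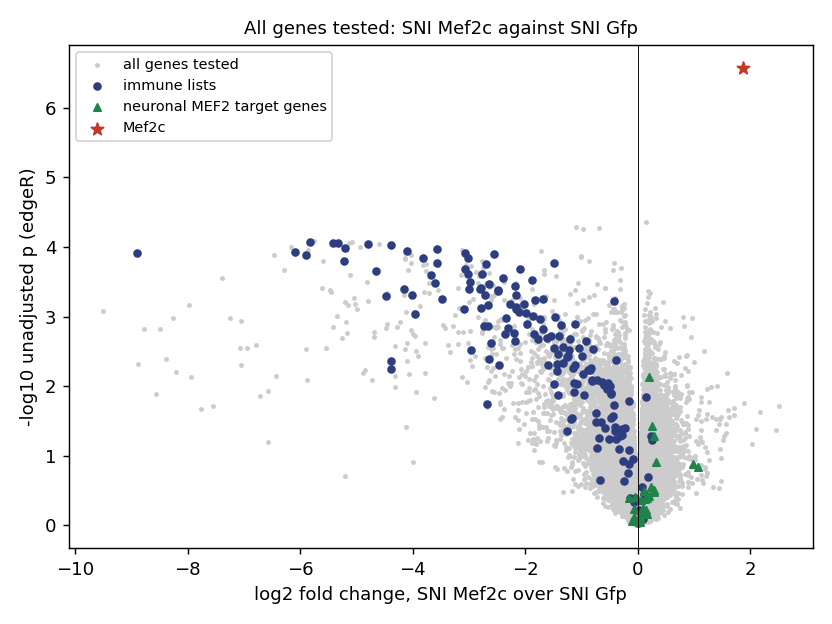
Each gene tested, with its log2 fold change of SNI Mef2c over SNI Gfp (x axis) and the -log10 of its unadjusted edgeR p (y axis), with immune list genes in blue, neuronal MEF2 targets as green triangles and Mef2c as a red star. Mef2c stands alone at the top at 1.86, most immune genes lie left of 0 and most MEF2 targets lie close to 0.

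Of the interferon effector genes, 0 of 53 passed, 53 had a negative log2 fold change and 51 were lower at an unadjusted p under 0.05. Of all 23738 genes, 11913 had a negative log2 fold change and 2004 (8.44%) were lower at that p. The median log2 fold change of the interferon effector genes was -1.99, and -0.34 without SNI Gfp libraries 4 and 6. These libraries were above every SNI Mef2c library in 52 of the 53, against 9.19% of all genes. Leaving them out was chosen after seeing the data. A smaller difference in lists where they are highest was therefore built in, here and below. The mean of the list was 1.51, 1.21, 0.997, 1.55, 1.09 and 1.09 log2 CPM in SNI Mef2c libraries 1 to 6, against 1.16, 1.33, 2.32, 3.97, 1.46 and 4.71 log2 CPM in SNI Gfp libraries 1 to 6. Libraries 6 and 4 were highest, library 3 was between, and SNI Gfp libraries 1, 2 and 5 lay within the range of SNI Mef2c. Iigp1, an interferon-inducible GTPase, had 1.41, 1.77 and 1.95 CPM as lowest, median and highest in SNI Mef2c, against 1.14, 3.25 and 172 CPM in SNI Gfp (log2 fold change -4.79, SE 1.00, adjusted p = 0.0891). Oasl2, of the oligoadenylate synthetase family, had 3.37, 4.45 and 6.31 CPM in SNI Mef2c, against 4.84, 12.8 and 132 CPM in SNI Gfp (log2 fold change -3.07, SE 0.66, adjusted p = 0.0891). In both genes SNI Gfp library 6 was highest and library 4 second.

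The interferon-stimulated response element GAAANNGAAA, searched on both strands, stood in the 250 bases before the start of 2.98% of the RefSeq promoters. Of the interferon effector list 39 of 54 genes matched, and 21 of their 46 promoters held it (45.7%). A GAS element, TTCNNNGAA, stood in 7.02% of all promoters and in 11 of those 46 (23.9%). The promoters of Igtp and Fcgr4 are shown as 2 genes with a single response element among those named here, with the element in capitals, at chr11:58199306-58199555 (Igtp, plus strand) and chr1:171018676-171018925 (Fcgr4, plus strand).
Igtp: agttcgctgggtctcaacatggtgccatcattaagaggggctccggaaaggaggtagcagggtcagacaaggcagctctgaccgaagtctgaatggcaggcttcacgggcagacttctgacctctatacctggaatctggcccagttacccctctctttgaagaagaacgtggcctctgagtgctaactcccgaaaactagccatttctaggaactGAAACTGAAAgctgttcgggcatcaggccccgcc
Fcgr4: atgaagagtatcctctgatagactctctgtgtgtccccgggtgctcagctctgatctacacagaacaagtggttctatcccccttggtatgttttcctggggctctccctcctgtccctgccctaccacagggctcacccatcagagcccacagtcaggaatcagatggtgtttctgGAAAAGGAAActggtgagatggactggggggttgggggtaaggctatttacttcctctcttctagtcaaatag
The response element began 34 bases before the start in Igtp and 73 bases before it in Fcgr4. The Igtp promoter also held 1 GAS element, which is not in capitals, and that of Fcgr4 held 0. Igtp, an interferon-inducible GTPase, had a lowest, median and highest level of 1.08, 1.34 and 1.53 CPM in SNI Mef2c, against 1.38, 2.09 and 81.6 CPM in SNI Gfp (log2 fold change -4.10, SE 0.88, adjusted p = 0.0891), and its span overlaps the more abundant Irgm2. Fcgr4, an activating IgG receptor of myeloid cells, had 0, 0.0828 and 0.211 CPM in SNI Mef2c, against 0.153, 0.359 and 12.7 CPM in SNI Gfp (log2 fold change -5.09, SE 1.06, adjusted p = 0.0891). In both genes libraries 4 and 6 held nearly all of the SNI Gfp signal.

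Of the regulators of the interferon pathway 0 of 31 passed, with 17 lower and 0 higher at an unadjusted p under 0.05. Of all genes, 8.44% were lower and 5.81% higher at that p. The median log2 fold change of these regulators was -0.66, and -0.02 without SNI Gfp libraries 4 and 6. Mavs, the mitochondrial adaptor of RNA sensing, had 6.82, 7.51 and 8.70 CPM in SNI Mef2c, against 8.57, 10.5 and 12.0 CPM in SNI Gfp (log2 fold change -0.43, SE 0.11, adjusted p = 0.104). In Mavs the groups overlapped slightly, and SNI Gfp library 4, at 9.47 CPM, was below the median of its group.

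Antigen presentation genes behaved likewise. Class I genes had 0 of 21 past the threshold and 20 lower at an unadjusted p under 0.05, with a median log2 fold change of -1.49, and -0.24 without SNI Gfp libraries 4 and 6. Over all genes, 8.44% were lower at that p. H2-D1, a classical class I heavy chain, had a lowest, median and highest level of 28.8, 34.6 and 42.2 CPM in SNI Mef2c, against 39.9, 61.1 and 619 CPM in SNI Gfp (log2 fold change -2.57, SE 0.55, adjusted p = 0.0891). Class II genes had 0 of 14 past the threshold and 12 lower, with a median of -1.90, and -0.29 without those libraries. Cd74, the invariant chain of class II, had 3.45, 5.09 and 7.11 CPM in SNI Mef2c, against 3.52, 15.6 and 761 CPM in SNI Gfp (log2 fold change -5.42, SE 1.13, adjusted p = 0.0891). H2-Aa, a class II alpha chain, had 0.505, 0.945 and 1.53 CPM in SNI Mef2c, against 0.378, 3.67 and 200 CPM in SNI Gfp. The groups overlapped in Cd74 and H2-Aa, with the lowest SNI Gfp libraries at the SNI Mef2c level. The class II mean was 4.73 and 5.24 log2 CPM in SNI Gfp libraries 4 and 6, 0.91 to 2.07 log2 CPM in Sham Mef2c and 3.93 to 5.73 log2 CPM in Sham Gfp.

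**Figure D4:**
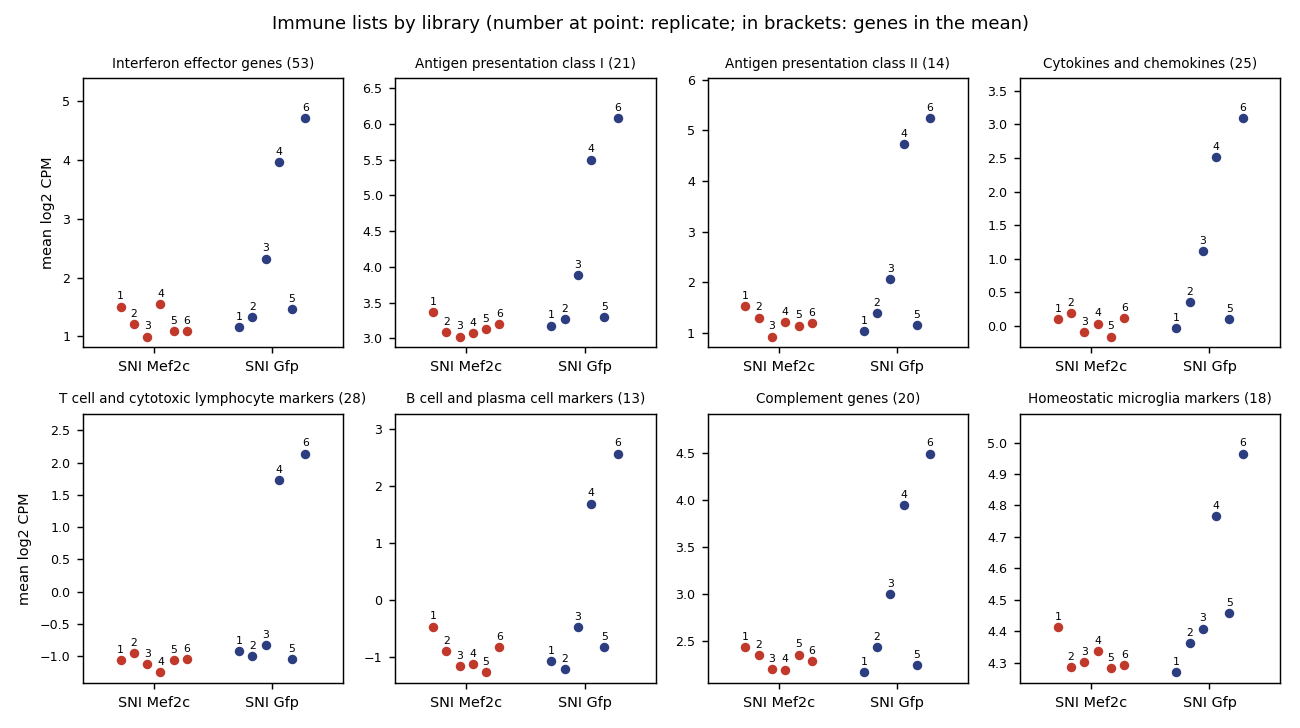
Mean log2 CPM of 8 immune and microglial lists in each SNI Mef2c and SNI Gfp library, with the replicate number at each point and the number of genes in brackets. SNI Gfp libraries 4 and 6 are the 2 highest in every panel, at 3.97 and 4.71 in the interferon effector list, where SNI Mef2c libraries lie at 0.997 to 1.55.

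Cytokine, T cell and B cell lists were likewise highest in SNI Gfp libraries 4 and 6 among the 12 SNI libraries. Cytokines and chemokines had 0 of 25 past the threshold, 19 lower at an unadjusted p under 0.05 and a median log2 fold change of -2.65, and -0.34 without those libraries. The share of all genes lower at that p was 8.44%. Ccl5, a chemokine that draws T cells, had a lowest, median and highest level of 0.0619, 0.0828 and 0.167 CPM in SNI Mef2c, against 0.178, 0.723 and 12.4 CPM in SNI Gfp (log2 fold change -5.21, SE 1.11, adjusted p = 0.0891). The groups did not overlap in Ccl5, which in that direction held for 2 of the 25 genes of this list and 0.227% of all genes. T cell and cytotoxic lymphocyte markers had 0 of 28 past the threshold and 21 lower, with a median of -2.36, and -0.18 without those libraries. The mean of that list was 1.73 and 2.14 log2 CPM in SNI Gfp libraries 4 and 6, -1.13 to -0.81 log2 CPM in Sham Mef2c and 0.64 to 2.72 log2 CPM in Sham Gfp. Cd3g, a subunit of the T cell receptor complex, had 1 count over the 6 SNI Mef2c libraries, against 328 counts over the 6 SNI Gfp libraries, all 328 in libraries 4 and 6; the ratio of SNI Gfp over SNI Mef2c was 321 (exact 95% interval 57.3 to 12730, counting error only). Gzmb, a protease of cytotoxic lymphocytes, had 0 counts in SNI Mef2c, against 76 counts in SNI Gfp, 74 of them in libraries 4 and 6. Against a floor of 3 counts over the group, the summed Gzmb counts were at least 24.8-fold lower in SNI Mef2c. That figure takes no account of the spread among libraries, and the other 4 SNI Gfp libraries held 2 counts. B cell and plasma cell markers had 0 of 13 past the threshold and 12 lower, with a median of -2.21, and -0.11 without those libraries. In bulk tissue, fewer cells of a type and less RNA per cell cannot be told apart.

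With all libraries in the fit, complement and microglial lists had medians closer to 0 than the lymphocyte lists. Complement genes had 0 of 20 past the threshold and 15 lower at an unadjusted p under 0.05, with a median log2 fold change of -1.11. Among all genes, 8.44% were lower at that p. Without SNI Gfp libraries 4 and 6 the complement median was -0.18. C4b, a complement component, had a lowest, median and highest level of 25.8, 29.5 and 49.3 CPM in SNI Mef2c, against 26.8, 45.9 and 305 CPM in SNI Gfp (log2 fold change -1.69, SE 0.47, adjusted p = 0.131). Homeostatic microglia markers had a median of -0.31 over 18 genes, and -0.03 without SNI Gfp libraries 4 and 6. Tmem119, a marker of resident microglia, had 15.04, 16.8 and 18.9 CPM in SNI Mef2c, against 17.7, 19.2 and 39.4 CPM in SNI Gfp (log2 fold change -0.54, SE 0.16, adjusted p = 0.165). The 2 highest libraries were again SNI Gfp 6 and 4.

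In the glial and other tissue lists 0 members passed. Over all genes, 5.81% were higher and 8.44% lower at an unadjusted p under 0.05, with 11825 positive and 11913 negative log2 fold changes. Oligodendrocyte and myelin genes had a negative log2 fold change in 18 of 18 genes, with 7 lower at an unadjusted p under 0.05, a median of -0.28, and -0.39 without SNI Gfp libraries 4 and 6. Cldn11, a tight junction protein of myelin, had a lowest, median and highest level of 64.7, 85.2 and 104 CPM in SNI Mef2c, against 99.8, 108 and 120 CPM in SNI Gfp (log2 fold change -0.34, SE 0.11, adjusted p = 0.204). Reactive astrocyte genes had a median of -0.68 over 22 genes, and -0.24 without libraries 4 and 6, while astrocyte markers had a median of -0.02. Mitochondrially encoded genes had a positive log2 fold change in 13 of 13 genes and 11 higher at an unadjusted p under 0.05. Their median was 0.19, and 0.11 without SNI Gfp libraries 4 and 6. Ttr, the thyroid hormone carrier of choroid plexus, had 810 CPM in SNI Gfp library 6 and a median of 1.22 CPM in SNI Mef2c, against 1.32 CPM in SNI Gfp.

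**Figure D5:**
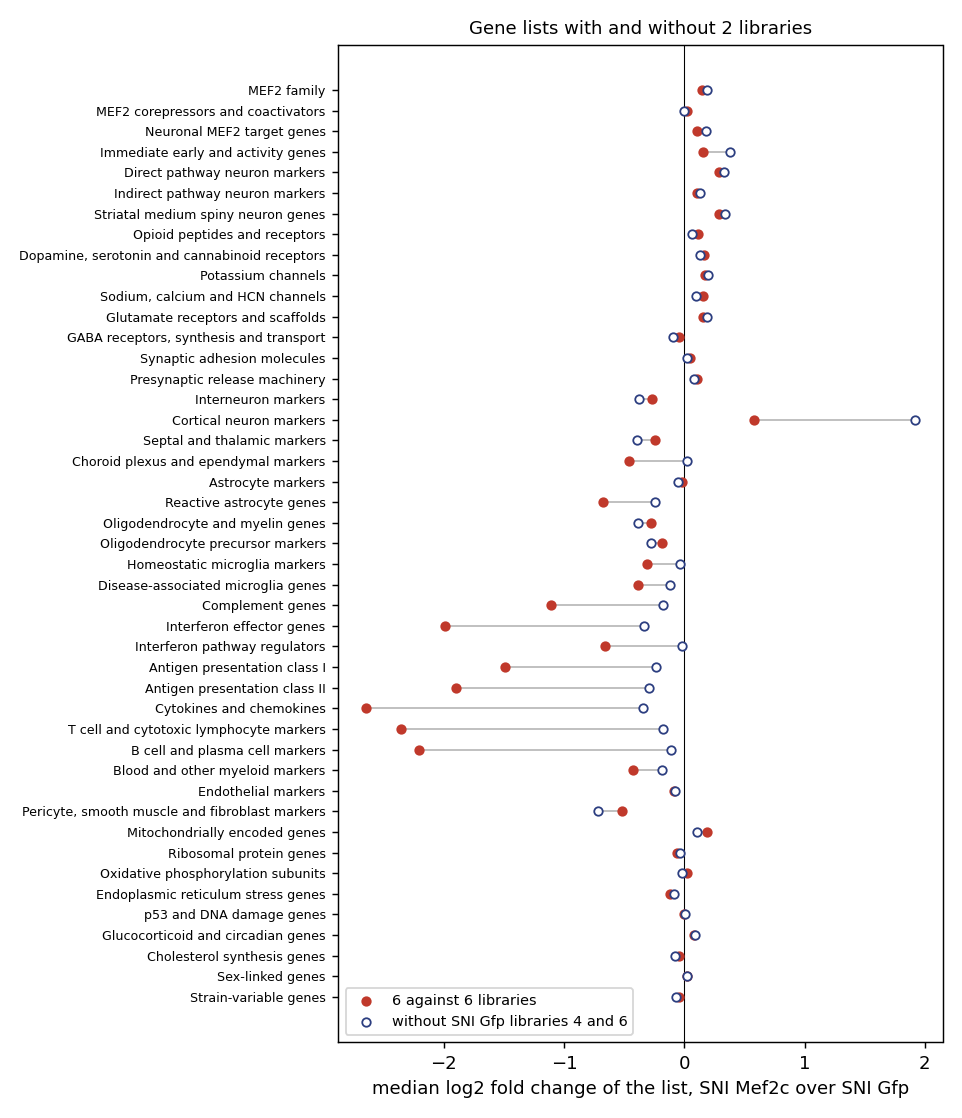
Median log2 fold change (SNI Mef2c over SNI Gfp) of each of 45 gene lists with all 6 against 6 libraries (red) and without SNI Gfp libraries 4 and 6 (open blue). The interferon effector median is -1.99 with and -0.34 without those libraries, and the cortical marker median is 0.58 with and 1.92 without them. The cortical list here includes Mef2c. Leaving out SNI Gfp libraries 4 and 6 was chosen after seeing the data.

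The number of genes that passed turned on single SNI Gfp libraries. Without SNI Gfp library 1, 2 or 5, edgeR called 153, 379 and 162 genes, of which 152, 354 and 161 were lower, and 58, 77 and 57 of them were in the immune lists. Without SNI Gfp library 3, 4 or 6 it called 1 gene, and without libraries 4 and 6 together it called 0 genes, with 3223 at an unadjusted p under 0.05. DESeq2 on all libraries called 35 genes higher (0.147%) and 398 lower (1.68%), with 88 in the immune lists, which hold 163 of the genes tested (0.687%). limma-voom with library quality weights called 2 genes higher (0.00843%) and 11 lower (0.0463%), with 0 in the immune lists. It gave SNI Mef2c library 1 a weight of 0.208 and SNI Gfp libraries 4 and 6 weights of 0.492 and 0.549. The other SNI libraries had weights of 0.768 to 2.40. Of the MEF2 target list, 0 genes passed in any of these fits. Fignl2, which had the smallest p after Mef2c among genes of known symbol, had a lowest, median and highest level of 3.54, 4.46 and 5.23 CPM in SNI Mef2c, against 5.32, 7.47 and 8.61 CPM in SNI Gfp (log2 fold change -0.70, SE 0.14, edgeR adjusted p = 0.0891). Its groups did not overlap, which in that direction held for 54 of all genes tested (0.227%). Fignl2 passed in DESeq2 (adjusted p = 0.000628) and in limma-voom (adjusted p = 0.0352).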

How the data were processed

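Per the labels, RNA came from a TRIzol and chloroform extraction, and a stranded mRNA kit was used for the libraries. The authors deposited raw counts per gene and FPKM values; featureCounts and mm10 are named in the submitters' processing notes, and no source used here gives the aligner, annotation or strand setting. The deposited FPKM used the whole gene span, introns included, as length for 42625 of 42625 genes compared, so genes whose span overlaps a more abundant gene are named as uncertain. The FPKM values were used for nothing else. Of 55401 gene IDs, 55141 matched GENCODE M21 without the ID version.

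Counts were filtered with filterByExpr, scaled by TMM and fitted in edgeR 4.0.16 (R 4.3.3) with 4 group means over all 24 libraries (20 residual degrees of freedom). Two-sided p-values were adjusted by the Benjamini-Hochberg method over 23738 genes. List means use log2 CPM with a prior count of 2. Alternatives were DESeq2 1.42.0, limma-voom (limma 3.58.1) with quality weights, other scalings and filters, the 12 libraries alone, a cortical covariate, a replicate block and each library left out. Leaving out SNI Gfp libraries 4 and 6, or SNI Mef2c library 1 with SNI Gfp library 4, was added after seeing the data. The edgeR step was tested on simulated counts. In the 60 pairs of libraries within groups chi-square per degree of freedom was at least 3.22, so none was a copy. The 45 gene lists and the comparison were chosen with earlier results of these data known. Named genes are the MEF2 family, the 10 genes of known symbol with the smallest p, since fewer than 5 passed, and up to 4 genes per list by smallest p; Jun, Hdac5, Arc, Bdnf and Gzmb were named in addition, after their values were seen. Promoters are from RefSeq (GRCm38.p6).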

Additional observations from a re-analysis of the deposited data

Results flagged for a closer look

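A library far from the other 5 of its group was found in 10 of 98 groups of list means or MEF2 family levels (10.2%). Chance alone flags about 1 in 20 independent groups. The lists share libraries and some genes, so the groups are not independent and the 10.2% cannot be set against that rate. Of the 10 flags, 8 were SNI Mef2c library 1. It was the lowest of its group in direct pathway markers (4.53 log2 CPM), indirect pathway markers (5.07), medium spiny neuron genes (7.48), opioid peptides and receptors (4.40), dopamine, serotonin and cannabinoid receptors (4.33), and GABA receptors, synthesis and transport (6.90). It was the highest in astrocyte markers (7.498) and endothelial markers (4.804). SNI Gfp library 3 was the highest of its group in pericyte, smooth muscle and fibroblast markers (4.55), and SNI Gfp library 6 was the lowest in oxidative phosphorylation subunits (6.57).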

How the results depend on the processing

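The rise of Mef2c kept its direction in every alternative, with an exact permutation log2 difference of 1.77 to 1.94 when 1 library was left out. In the fit across all genes it missed the threshold when SNI Gfp libraries 4 and 6 were left out (log2 fold change 1.92, edgeR adjusted p = 0.0763). The count of 1 gene was also 1 under median-of-ratios scaling, library size alone, both other filters, the 12 libraries alone and the cortical covariate, and 1 to 379 when 1 library was left out; it was 433 in DESeq2, 13 in limma-voom and 0 without SNI Gfp libraries 4 and 6. The difference of the vector effect between SNI and sham passed for 0 genes, for 1 in DESeq2 and for 1494 without those libraries (1207 higher and 287 lower). The cause of these changes was not tested. With the replicate number as a block, 1 gene passed. Same-numbered SNI libraries correlated at -0.135 to 0.07, and 0 of 6 SNI Mef2c libraries correlated best with their own number. No pairing by number was seen in these correlations, which cannot exclude one. Sequencing depth limits Cd3g and Gzmb, which had 1 and 0 counts over the SNI Mef2c group.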
